A study of Homo sapiens with 4 samples.

Results

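The genes of DNA mismatch repair and replicative DNA synthesis MSH3, MSH6, PMS1, PMS2, MLH3, EXO1, POLE and POLD1 were followed in human endometrial cancer cells in which Efp, the ubiquitin ligase encoded by TRIM25, was silenced. The genes were listed by name and function, with earlier results of these data known, and all 8 of them were among the 18417 genes measured. Their mRNA was compared between the cell lines and between siEfp and siControl within each line. The lines were ERα-positive Ishikawa cells, from a well-differentiated endometrial adenocarcinoma, and ERα-negative HEC-1A cells, from a moderately differentiated one. Both were grown in serum-containing medium and transfected with siRNA against Efp (siEfp) or a control siRNA (siControl), and 1 array was hybridised for each of the 4 combinations. For Ishikawa cells the methods give siEfp #A and 48 h of treatment, whereas no source used here states the duplex or the time for HEC-1A cells. Each condition is therefore 1 culture of 1 line.

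Mismatch repair removes bases that were wrongly paired during DNA replication. MutS proteins, among them those encoded by MSH3 and MSH6, recognise the mispair, MutL proteins, among them those encoded by PMS1, PMS2 and MLH3, carry the signal on, the exonuclease EXO1 digests the strand that carries the error, and a replicative polymerase fills the gap. POLE and POLD1 encode the catalytic subunits of the polymerases ε and δ, whose own proofreading exonucleases remove most errors before mismatch repair acts. In endometrial cancer, loss of mismatch repair and mutation of the POLE exonuclease domain each mark a molecular class of tumors. The arrays measured mRNA and not mutations or protein.

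The silencing and the identity of the lines were looked at first. The log2 signal of TRIM25 was 9.42 with siControl and 7.96 with siEfp in Ishikawa cells, and 9.50 and 7.93 in HEC-1A cells. ESR1, the gene of ERα, was at 6.91 and 6.65 on the Ishikawa arrays and at 4.45 and 4.77 on the HEC-1A arrays, in the direction of the labels. Of 6 epithelial markers 5 were lower in HEC-1A cells. CDH1, the gene of E-cadherin, was at 10.22 and 9.62 in Ishikawa but at 4.07 and 3.74 in HEC-1A cells, below the first quartile of all genes on the latter arrays (4.43), so this defining marker was absent or nearly so there. That these arrays are HEC-1A cells rests on the labels, and every line difference given here depends on it. EPCAM was at 11.24 on both Ishikawa arrays and at 7.26 and 7.05 on the HEC-1A arrays, whereas the keratin gene KRT18 differed by 0.01. Markers of stromal, endothelial and immune cells ranged from 2.79 to 7.40 over all arrays, where the median gene lay between 6.25 and 6.34. COL1A1 reached 7.40 on the Ishikawa siControl array and CD68 7.26 on the HEC-1A siEfp array. DCN, LUM, PECAM1 and PTPRC stayed at or below 3.32. Of these lists 1 of 6 stromal and 1 of 4 endothelial markers were called lower, and 1 of 4 immune markers, CD68, was called higher in HEC-1A cells.

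Sequence stretches upstream of MSH3, POLE and PMS2 are shown because these were the members with a match to the octamers bound by E2F factors, which drive replication genes at the entry into S phase. The 250 bases before each annotated start were searched on both strands in RefSeq sequence (GRCh38.p14), for TTTCCCGC, TTTCGCGC, TTTGCCGC and TTTGGCGC. Capitals mark the match, and each stretch is written 5′ to 3′ on the strand of the gene.
MSH3, chr5:80654535-80654562, plus strand: cgcggtcaagTTTGGCGCgaaattgtgg
POLE, chr12:132687343-132687370, minus strand: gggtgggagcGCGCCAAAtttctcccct
PMS2, chr7:6009132-6009159, minus strand: gggaagtattTTTGCCGCcccgcccgga
The MSH3 octamer began at position -107 from the start and overlapped another match on the opposite strand (GCGCGAAA, position -103). The POLE octamer lay at position -18 and read on the opposite strand. The PMS2 octamer lay at -43 or -100, depending on which of 2 annotated starts is taken, and ran into a GC box. An octamer was found upstream of 3 of 8 members, and upstream of 3.40% of the 27305 genes in the table. The GC box GGGCGG was found for 7 members, all but MLH3, and for 46.2% of genes. The CCAAT box was found for 4 members, MSH6, PMS1, PMS2 and POLE, and for 37.0% of genes. These are matches of letters in reference sequence, and binding was not measured.

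Across the lines, MSH3 and POLE were lower and EXO1 and POLD1 higher in HEC-1A than in Ishikawa cells, each by 1.41- to 1.75-fold, while MSH6, PMS1, PMS2 and MLH3 did not pass the test. The line difference was the mean of HEC-1A minus Ishikawa over both siRNAs, fitted with limma over all genes on the 4 arrays with siRNA as a block and called at an adjusted p (Benjamini-Hochberg) under 0.05. With 4 of 8 members called against 35.2% of all genes, a call between the lines was common, and the count of 4 is not read as a result about the members. Called lower were 2 of 8 members and 17.0% of all genes, and called higher 2 of 8 members and 18.3% of all genes. No member differed 2-fold, as 2212 of all genes did. The arrays of a line are 1 culture per siRNA, so the test does not measure the spread between cultures of a condition. Each SE rests on 1 residual degree of freedom of the gene and 5.54 prior degrees of freedom drawn from all genes. The residual of a gene is the gap between its siEfp differences in the 2 lines. In bulk RNA, fewer cells that express a gene and less RNA per cell cannot be told apart.

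MSH3, which recognises larger insertion-deletion loops, showed the widest line difference of the 8 genes. Its log2 signal was 9.40 with siControl and 9.11 with siEfp in Ishikawa cells, and 8.43 and 8.47 in HEC-1A cells. Both HEC-1A arrays lay below both Ishikawa arrays, and the gap between the lines was wider than the gap between the siRNAs in either line. The fitted difference was -0.81 (SE 0.14, limma adjusted p = 0.00439), or 1.75-fold lower in HEC-1A cells, and it was -0.97 between the siControl arrays and -0.65 between the siEfp arrays. Without the HEC-1A siEfp array the difference was -0.83, and without the HEC-1A siControl array it was -0.79. Neither was called, and both fits also dropped the siRNA term. Over the 4 arrays, after each gene was centred on its own mean, the genes nearest to MSH3 were RGMB, MAST1 and ZNF391, at Euclidean distances of 0.048, 0.054 and 0.055 on the log2 scale.

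MSH6, which recognises single mispairs and short loops, did not pass the test between the lines. Its signal was 7.42 and 7.06 in Ishikawa cells with siControl and siEfp, and 7.58 and 7.53 in HEC-1A cells. The lines did not overlap, but the siControl arrays differed by 0.15 and the siEfp arrays by 0.47, and the Ishikawa siEfp array was the lowest of the 4. The fitted difference was 0.31 (SE 0.13, limma adjusted p = 0.129). In a fit without the Ishikawa siEfp array and without the siRNA term it was 0.13.

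**Figure D1:**
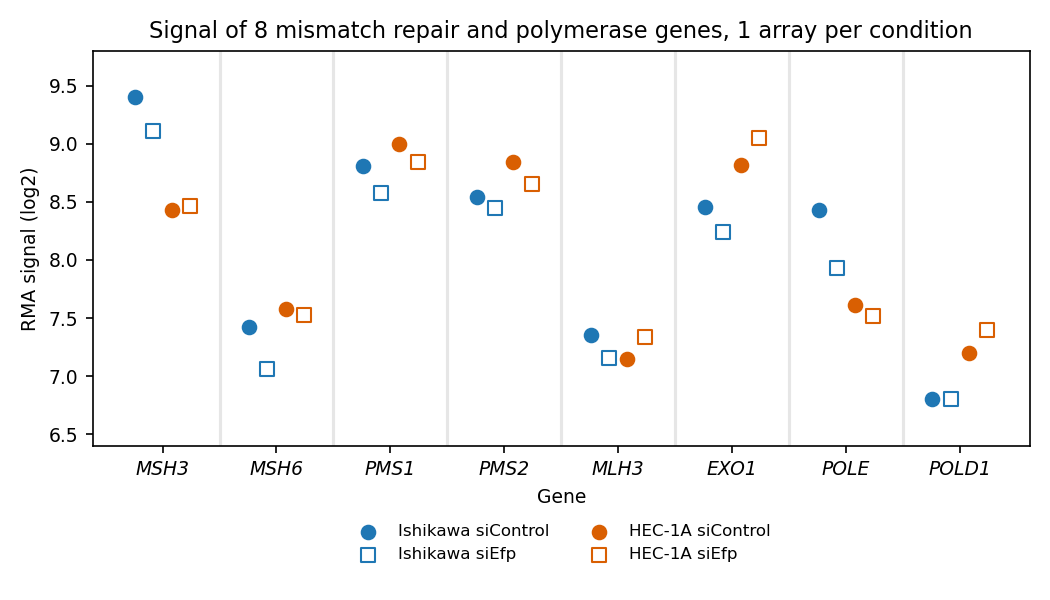
Signal on the log2 scale after RMA (y axis) for each of the 8 genes (x axis) on 4 arrays, 1 per condition. Blue marks Ishikawa and orange HEC-1A cells, filled circles siControl and open squares siEfp. MSH3 and POLE lie lower on both HEC-1A arrays than on both Ishikawa arrays. EXO1, POLD1, MSH6, PMS1 and PMS2 lie higher, and MLH3 overlaps. Of all genes 62.7% do not overlap between the lines. Levels of different genes cannot be compared.

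None of the MutL genes passed the test between the lines. PMS1, a MutL homolog without a settled role in repair, was at 8.81 and 8.58 in Ishikawa and at 8.99 and 8.84 in HEC-1A cells, with a fitted difference of 0.23 (SE 0.12, limma adjusted p = 0.212). PMS2, the endonuclease subunit of the main MutL complex, was at 8.54 and 8.45 in Ishikawa and at 8.84 and 8.65 in HEC-1A cells, with a difference of 0.25 (SE 0.12, limma adjusted p = 0.167). MLH3, which also acts in meiotic crossing over, was at 7.35 and 7.15 in Ishikawa and at 7.15 and 7.33 in HEC-1A cells. For PMS1 and PMS2 both HEC-1A arrays were above both Ishikawa arrays, while MLH3 was the only member whose lines overlapped, with a difference of -0.01 (SE 0.14, limma adjusted p = 0.967). Leaving out 1 array, which also dropped the siRNA term, moved the PMS1 difference to between 0.11 and 0.34. The lower value was without the Ishikawa siEfp array and the higher without the Ishikawa siControl array. The PMS2 difference moved to between 0.16, without the HEC-1A siControl array, and 0.35, without the HEC-1A siEfp array. Separation of this kind, in either direction, was seen for 7 of 8 members and for 62.7% of all genes.

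PMS2 has many near-identical pseudogene copies, which can share its probes. One probe set was annotated to PMS2 alone and gave the values above, and 8 more were annotated to PMS2 together with other gene symbols. On those 8 the line difference ranged from 0.06 to 0.20, beside 0.25 on the PMS2 probe set. The 8 carry 10 to 13 gene symbols each, so they are not separate measurements of PMS2. Which of those symbols are PMS2 pseudogenes was not checked. Whether the PMS2 probe set is free of pseudogene signal was not tested.

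EXO1, the exonuclease that digests the nascent strand, was higher in HEC-1A cells. Its signal was 8.46 and 8.24 in Ishikawa and 8.82 and 9.04 in HEC-1A cells, so the lowest HEC-1A array was above the highest Ishikawa array. The fitted difference was 0.58 (SE 0.15, limma adjusted p = 0.0229), or 1.5-fold, made up of 0.36 with siControl and 0.81 with siEfp. Leaving out 1 array also dropped the siRNA term, and no such fit called EXO1. Its difference was 0.69 and 0.475 without the Ishikawa siControl and siEfp arrays. Without the HEC-1A siControl and siEfp arrays it was 0.70 and 0.47.

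The 2 catalytic subunits of the replicative polymerases went in opposite directions. POLE was at 8.43 and 7.93 in Ishikawa and at 7.62 and 7.52 in HEC-1A cells, with the Ishikawa siControl array highest. The fitted difference was -0.62 (SE 0.14, limma adjusted p = 0.0163), or 1.53-fold lower in HEC-1A cells, and it was -0.82 with siControl and -0.42 with siEfp. POLD1 was at 6.80 on both Ishikawa arrays and at 7.20 and 7.40 on the HEC-1A arrays. Its difference was 0.50 (SE 0.13, limma adjusted p = 0.023), or 1.41-fold higher in HEC-1A cells. Fits that left out 1 array also dropped the siRNA term. In them the POLE call was lost without the Ishikawa siControl (difference -0.37), HEC-1A siControl (-0.67) or HEC-1A siEfp array (-0.57). With all 4 arrays it was lost without the siRNA block (limma adjusted p = 0.0571). The POLD1 call was lost without any 1 of the 4 arrays. Its difference was 0.494 and 0.497 without the Ishikawa siControl and siEfp arrays. Without the HEC-1A siControl and siEfp arrays it was 0.595 and 0.396.

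The partner subunits did not all follow their catalytic subunits. Of polymerase δ, POLD3 was higher in HEC-1A cells by 1.16 (SE 0.17, limma adjusted p = 0.00241) and POLD4 by 0.59 (SE 0.12, adjusted p = 0.0101), whereas POLD2 had a difference of -0.35 (adjusted p = 0.0681). Of polymerase ε, no accessory subunit passed the test, with POLE2 at -0.23, POLE3 at 0.35 and POLE4 at -0.06. In the polymerase α-primase complex, which starts new strands, 1 of 4 genes was called, POLA2, higher by 0.72. The catalytic subunit gene POLA1 had a difference of 0.14, and the primase genes PRIM1 and PRIM2 had differences of 0.18 and 0.22.

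Other genes of repair and replication were called in both directions as well. Of 36 measured among 38 listed, 9 were higher and 5 lower in HEC-1A cells and 22 were not called, with a median line difference of 0.17, beside 0.24 for the members and 0.01 for all genes. Of the 9 genes of the sliding clamp, its loader and the single-strand binding protein, RFC3 was higher by 0.99, RPA3 by 0.82 and RPA2 by 0.71, RFC1 was lower by a difference of -0.40, and PCNA, the clamp itself, was not called (0.23). Of the 8 accessory subunits and end-processing enzymes 2 were called, POLD3 and POLD4, and the ligase gene LIG1 had a difference of 0.01. Among 8 further clamp loader, helicase and repair genes, CHTF8 (0.64) and MCM8 (0.46) were higher and FAN1, a nuclease of interstrand crosslink repair, lower (-0.56). Of 7 genes of nucleotide supply, TYMS, thymidylate synthase, was higher by 1.27, and RRM2B (-1.08), SAMHD1 (-0.98) and TK1 (-0.55) were lower. The meiotic MutS gene MSH4 was dim on all arrays, between 3.98 and 4.67, and was not called. Of 16 S phase and proliferation markers 8 were not called, 6 were higher, among them CLSPN (1.37) and MKI67 (0.84), and 2 were lower, CCNE1 (-0.62) and CCNA2 (-0.53), beside the 35.2% of all genes called in either direction. Their part in the differences of EXO1, POLD1, MSH3 and POLE was not tested.

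**Figure D2:**
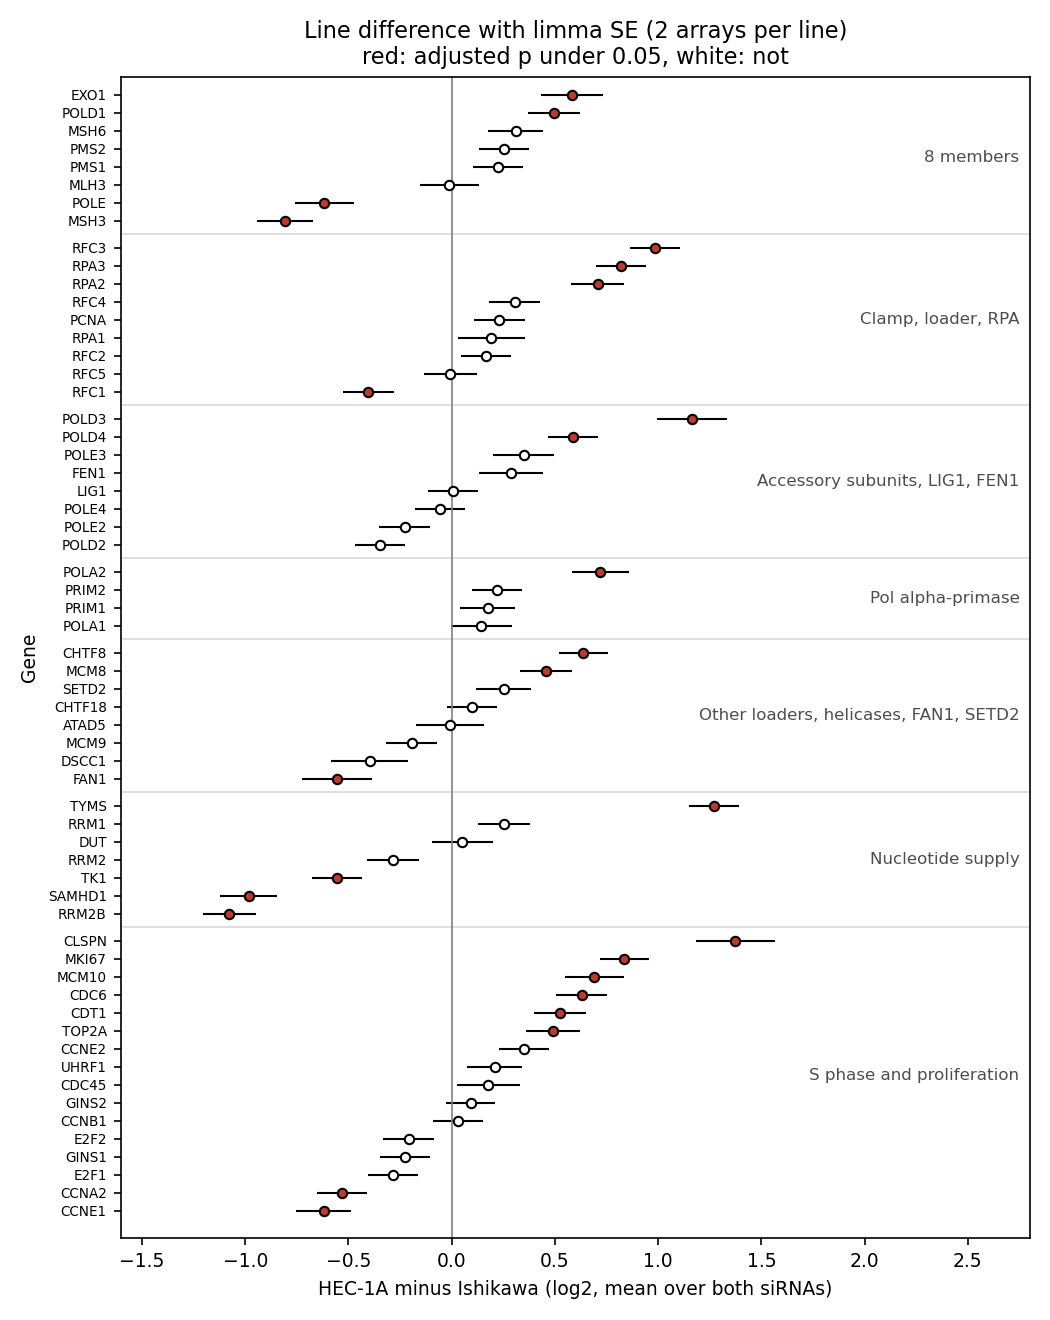
Difference HEC-1A minus Ishikawa (x axis, log2, mean over both siRNAs) of the members and 6 related gene lists (y axis), with the limma SE as bars, from 2 arrays per line. Red points have an adjusted p under 0.05 and white points do not; MSH3 at -0.81 and EXO1 at 0.58 are the ends of the members.

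With siEfp, 7 of 8 members were lower in Ishikawa cells and 4 of 8 in HEC-1A cells, all by less than 2-fold. Among all genes 47.6% were lower in Ishikawa and 47.7% in HEC-1A cells. At least 2-fold differences were seen for 0 of 8 members in either line, and for 0.939% of all genes in Ishikawa and 0.375% in HEC-1A cells. The median difference of the members was -0.22 in Ishikawa and -0.01 in HEC-1A cells, beside 0.01 for all genes in both. In mean signal the members were at or above 60.0% (POLD1) to 85.2% (MSH3) of all genes, so all genes include many dimmer ones. With 1 array per condition a difference within a line has no replicate check and no p-value. Fitted by limma over both lines with the line as a block, 0 of 8 members and 0.163% of all genes were called, and at an unadjusted p under 0.05 the count was 0 members and 2205 of all genes. This fit takes the lines as replicates of 1 effect.

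POLE had the largest siEfp difference of the 8 genes in Ishikawa cells, from 8.43 to 7.93, a difference of -0.50. Of all genes 5.27% were as low in that line, and the middle 95% of genes lay between -0.70 and 0.51. In HEC-1A cells POLE was at -0.10, and over both lines at -0.30 (SE 0.14, limma adjusted p = 0.477). The other subunits of polymerase ε were not uniformly lower in Ishikawa cells, with POLE2 at 0.27, POLE3 at -0.15 and POLE4 at 0.19.

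The MutS genes had the next largest differences in Ishikawa cells, -0.36 for MSH6 and -0.29 for MSH3. In HEC-1A cells they were at -0.05 and 0.04, where the middle 95% of all genes lay between -0.55 and 0.49. The MutL genes were at -0.23 for PMS1, -0.20 for MLH3 and -0.10 for PMS2 in Ishikawa cells, and at -0.15, 0.19 and -0.19 in HEC-1A cells. After a second quantile normalization the Ishikawa values of all 8 members were higher. POLE was then at -0.44, MSH6 at -0.30, MSH3 at -0.23, and PMS1 and EXO1 at -0.16. MLH3 and PMS2 were at -0.13 and -0.029, and POLD1 was at 0.05. On the 8 probe sets that PMS2 shares with other gene symbols the differences ran from -0.10 to 0.07 in Ishikawa cells, 6 of them above 0. In HEC-1A cells they ran from -0.12 to -0.08, all below 0.

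EXO1 was lower in Ishikawa cells, by a difference of -0.22, and higher in HEC-1A cells, by 0.23. POLD1 was at 0.00 in Ishikawa and 0.20 in HEC-1A cells. Centred on the median of all genes, POLD1 in Ishikawa cells was at -0.01, so its sign there is not settled. PMS1, PMS2, MSH6 and POLE were the 4 members that were lower with siEfp in both lines, and none of them was called by the limma fit.

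**Figure D3:**
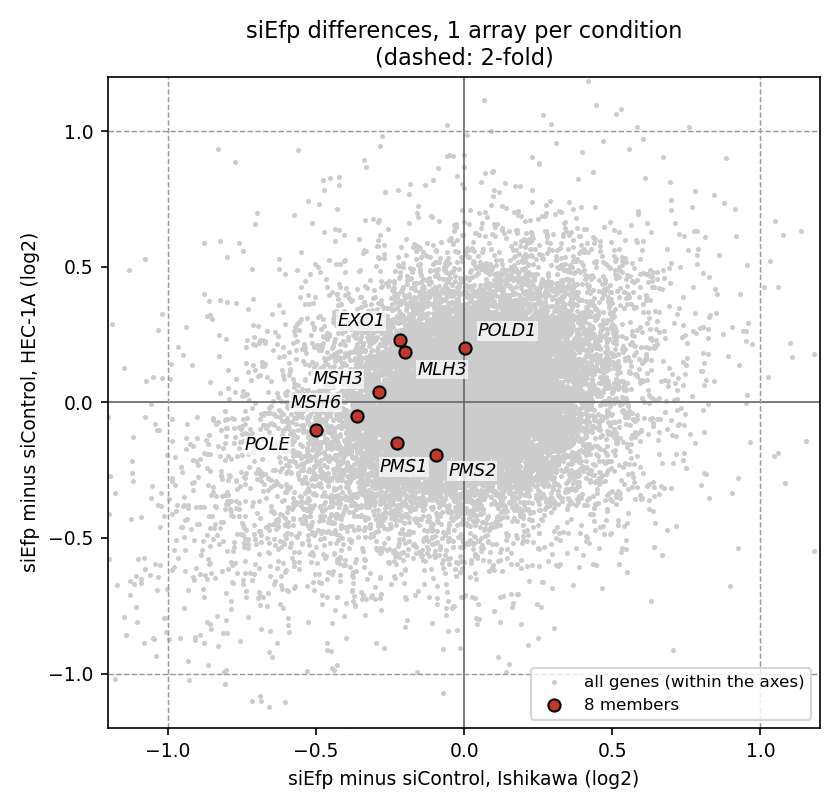
Difference siEfp minus siControl (log2) in Ishikawa (x axis) and HEC-1A cells (y axis), 1 array per condition. Grey points are all genes within the axes, red points the 8 members and dashed lines 2-fold; the members lie between -0.50 and 0.00 in Ishikawa and between -0.19 and 0.23 in HEC-1A cells.

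The siEfp difference was higher in HEC-1A than in Ishikawa cells for 7 of 8 members, all but PMS2, and for 51.5% of all genes. The gap was 0.45 for EXO1, 0.40 for POLE, 0.39 for MLH3, 0.32 for MSH3 and 0.31 for MSH6, and the middle 95% of all genes lay between -0.63 and 0.66. No array is left over to test such a gap, so these are values alone.

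Of the 36 other repair and replication genes 23 were lower in Ishikawa cells, with a median of -0.06, and 8 in HEC-1A cells, with a median of 0.11. Of all genes 47.6% were lower in Ishikawa and 47.7% in HEC-1A cells. None of the 36 differed 2-fold in either line, and the limma fit over both lines called 0 of them at an adjusted p under 0.05. The polymerase α-primase genes were lower for 4 of 4 in Ishikawa cells (median -0.07) and 1 of 4 in HEC-1A cells (median 0.20), with POLA1 at -0.31 and 0.14. The further clamp loader, helicase and repair genes were lower for 7 of 8 and 2 of 8, with DSCC1, a subunit of an alternative clamp loader, at -0.65 and ATAD5, which unloads the clamp, at -0.57 in Ishikawa cells. The clamp, loader and single-strand binding genes were lower for 3 of 9 and 1 of 9, the accessory subunits and end-processing enzymes for 5 of 8 and 1 of 8, and the nucleotide supply genes for 4 of 7 and 3 of 7. POLD3 had the lowest value of the accessory subunits in Ishikawa cells, -0.44.

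S phase and proliferation markers went both ways in Ishikawa cells, 6 of 16 lower and 10 higher with a median of 0.08. CLSPN, an adaptor of the replication checkpoint, was lowest at -0.92, followed by MCM10 at -0.45 and CDC6 at -0.44, and E2F2 (0.65) and CCNE1 (0.50) were highest. In HEC-1A cells 7 of 16 were lower, the median was 0.15, and CLSPN and MCM10 were at -0.15 and -0.05. Of all genes 47.6% were lower in Ishikawa and 47.7% in HEC-1A cells. None of the markers was called over both lines, beside 0.163% of all genes. The part of the cell cycle in the differences of the members was not tested.

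**Figure D4:**
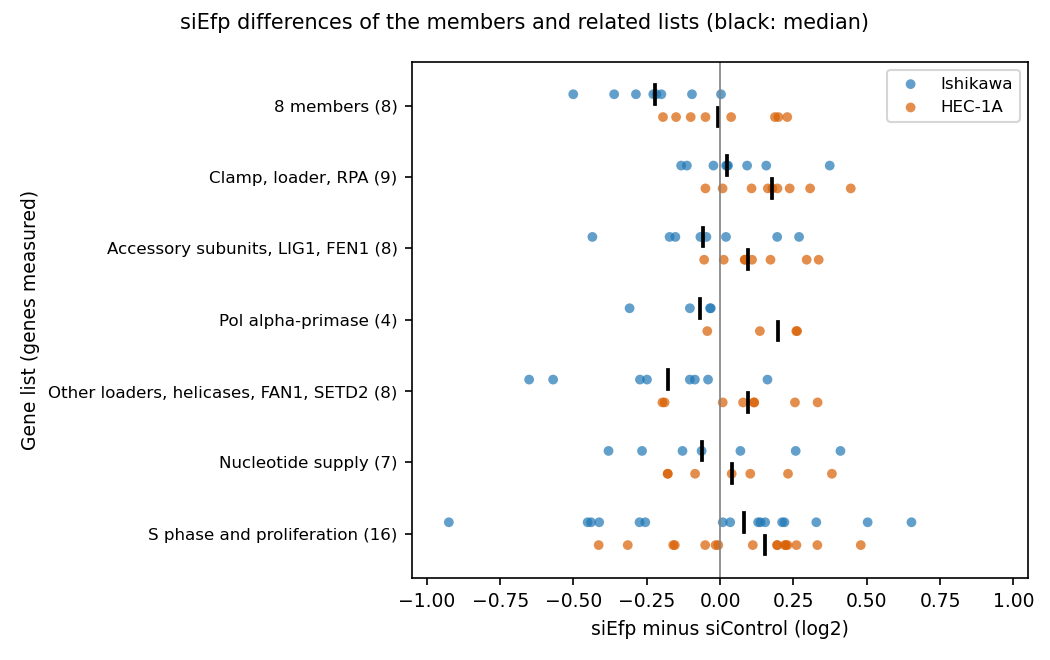
Difference siEfp minus siControl (x axis, log2) of the members and 6 related lists (y axis, with the number of genes measured), 1 array per condition. Blue points are genes in Ishikawa and orange points genes in HEC-1A cells, with black bars at the medians; for the members these are -0.22 and -0.01.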

How the data were processed

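Total RNA (150 ng, per the labels) was labelled and hybridised to 1 Affymetrix array per condition. The methods name a GeneChip Human Exon array, whereas the probe set IDs are those of a Human Gene array, whose annotation was used. The deposited values are log2 signals of probe sets. The authors computed them in Expression Console by RMA, that is, background correction, quantile normalization and summary over probes. This can remove a shift common to all genes and compress differences of dim probe sets. No source used here states versions or a genome build. The number of arrays limits the precision.

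Of 33297 probe sets, 19460 had exactly 1 gene symbol and were averaged per gene, giving 18417 genes. Of these probe sets 19429 had a gene ID in RefSeq for GRCh38.p14, and 0 symbols changed. Each of the 8 members has 1 such probe set. Probe sets with several symbols (1754) name no gene.

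limma 3.58.1 in R 4.3.3 was fitted with line and siRNA as additive terms, which leaves 1 residual degree of freedom. The script was checked on simulated data. Differences within a line have no test. Other steps used Python 3.11.15, numpy 2.4.6, pandas 2.3.3 and matplotlib 3.10.9. The members, gene lists, motifs and tests were chosen with earlier results of these data known. Named genes are the members, TRIM25, the markers, genes at the ends of each list or called in it, and the 3 genes nearest to the member with the widest range. Outside this rule, PCNA, LIG1 and the remaining polymerase and primase subunits were named for their roles, after their values were seen. Alternatives were centring, a second quantile normalization, the brightest probe set, leaving out dim genes, a 1.5-fold threshold, limma without the block or with an intensity trend, an adjusted p under 0.1, each siRNA alone and leaving out each array.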

Additional observations from a re-analysis of the deposited data

Results flagged for a closer look

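The members EXO1, MLH3 and MSH3 differed between siEfp and siControl in opposite directions in the 2 lines, each being lower in Ishikawa and higher in HEC-1A cells, as were 20.9% of all genes. The differences were -0.22 and 0.23 for EXO1, -0.20 and 0.19 for MLH3, and -0.29 and 0.04 for MSH3. The prior SD of the limma fit was 0.131 for 1 array value, and a difference of 2 arrays varies more. The HEC-1A value of MSH3 was smaller than even that SD, and none of these differences has a test. The HEC-1A difference minus the Ishikawa difference was 0.45 for EXO1, 0.39 for MLH3 and 0.32 for MSH3. With 1 array per condition the difference between the lines was not tested. Of all genes 7.66% had a gap as high as that of EXO1, 10.2% one as high as that of MLH3 and 14.1% one as high as that of MSH3.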

How the results depend on the processing

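Of the 8 members, 4 were called between the lines, and 3 to 4 under centring, a second quantile normalization, the brightest probe set, leaving out dim genes, an intensity trend, no replicate block and an adjusted p under 0.1. Leaving out each array in turn called fewer members and fewer genes. These fits have fewer samples, have no siRNA term, and take the lone array of a line to vary like the other line. MSH3, EXO1, POLE, POLD1, MSH6, PMS1 and PMS2 kept their direction under centring and under a second quantile normalization. Their other alternatives could not change it. The brightest probe set, leaving out dim genes, the trend and no block leave the fitted difference of a member as it is. Leaving out 1 array or taking each siRNA alone cannot reverse lines that do not overlap. MLH3, whose lines overlapped, kept its direction in 9 of 12 alternatives. The number of members called over both lines for siEfp, and of members at least 2-fold different in either line, was 0 under every alternative run. The count of all genes called for siEfp was 30, and 615 without dim genes, 182 with the trend, 85 at an adjusted p under 0.1 and 0 without the replicate block; the cause was not tested. At 1.5-fold, 960 genes in place of 173 differed in Ishikawa and 621 in place of 69 in HEC-1A cells. Within a line, the brightest probe set and leaving out dim genes could not move the siEfp difference of a member. Each member has 1 probe set and is not dim. Centring and a second quantile normalization moved these differences by at most 0.069, and 1 changed sign, that of POLD1 noted above. Over both lines, the siEfp difference of MLH3 went from -0.0068 to 0.026 after a second quantile normalization and that of EXO1 from 0.0057 to -0.0092 when centred. In the main fits the block was the siRNA for the line differences and the line for the siEfp differences, so both are paired in that sense. The labels give no replicate numbers that could pair arrays otherwise.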
